A study of Homo sapiens with 6 samples.

Results

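The 10 genes described here are used, alone or in pairs, to mark stem-like cells in breast tumours: CD44, CD24, PROM1, PROCR, ALDH1A1, ALDH1A3, SOX2, SOX4, SOX9 and BMI1. They were chosen by name, with earlier results of these data known. Each symbol was looked up among the names of the 24108 rows of a table of FPKM. FPKM is a count of sequenced fragments scaled to transcript length and to the size of the library. All 10 of 10 symbols were found, each in 1 row. The table came from MDA-MB-231, an established triple-negative human breast cancer cell line that the labels class as basal. A group of 3 samples (shCtr) was transduced for 48 h with a lentivirus carrying a short hairpin against luciferase, which these cells do not have. The other 3 samples (shZNF148) received, for the same time, a lentivirus carrying a short hairpin against ZNF148, a zinc finger transcription factor. Both groups were then selected for 24 h in 0.5 µg/ml puromycin, and total RNA was sequenced. There was 1 hairpin for ZNF148 and 1 control hairpin, in a transduced pool of a single cell line. The labels do not say whether the replicates of a group were separate cultures, so p-values measure the spread between these samples only, which may be technical.

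A breast cancer stem cell is defined by what it does: it can start a tumour when transplanted and can give rise to the other cells of that tumour. Cells rich in this property have been sorted from breast tumours by high CD44 with low CD24 on the cell surface, or by high aldehyde dehydrogenase activity, to which ALDH1A1 and ALDH1A3 contribute. The remaining markers are a surface glycoprotein (PROM1, also called CD133), a coagulation receptor that marks stem cells of the mouse mammary gland (PROCR), transcription factors of progenitor cells (the SOX genes) and a Polycomb protein needed for self-renewal (BMI1). A level in bulk RNA is a mean over all cells of a sample, so fewer cells of a type and less RNA per cell cannot be told apart.

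Of the 10 markers, CD44, PROCR and ALDH1A3 were lower and SOX9 was higher in shZNF148, each at an adjusted p under 0.05. BMI1 was measured in a row shared with its neighbour gene and did not pass. CD24 and SOX4 were too low to be tested, and ALDH1A1, PROM1 and SOX2 were listed at 0 in all 6 samples. The sequences before the transcription start sites of the 3 markers that were lower are given next, because ZNF148 is known to bind C-rich boxes in promoters. The 250 bases upstream of each start in RefSeq (GRCh38.p14) were searched for CCCTCCC and its reverse complement GGGAGGG, on the strand of the gene. Of all 35116 such windows, 24.7% held at least 1 match. Capitals mark the matches. CD44 had 2 matches in its window at chr11:35138921-35139170 (plus strand, 62.4% G and C, 15 CpG). Each is shown with 10 bases on both sides, since GENCODE places the exon of a longer CD44 transcript over this window. ALDH1A3 had 3 matches at chr15:100879581-100879830 (plus strand, 82.4% G and C, 38 CpG), of which the 232 bases before its first annotated exon there are shown. PROCR had 2 matches at chr20:35171822-35172071 (plus strand, 60.0% G and C, 5 CpG), shown whole.

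CD44, chr11:35139015-35139041: gggcccgcccGGGAGGGctgctacttc
CD44, chr11:35139094-35139120: ttcgctcgctCCCTCCCtccgtcttag
ALDH1A3, chr15:100879581-100879812: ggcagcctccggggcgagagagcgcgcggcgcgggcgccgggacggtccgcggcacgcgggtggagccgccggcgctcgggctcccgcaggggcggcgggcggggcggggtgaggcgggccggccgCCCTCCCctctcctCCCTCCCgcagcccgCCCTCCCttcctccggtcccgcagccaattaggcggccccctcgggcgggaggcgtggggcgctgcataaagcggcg
PROCR, chr20:35171822-35172071: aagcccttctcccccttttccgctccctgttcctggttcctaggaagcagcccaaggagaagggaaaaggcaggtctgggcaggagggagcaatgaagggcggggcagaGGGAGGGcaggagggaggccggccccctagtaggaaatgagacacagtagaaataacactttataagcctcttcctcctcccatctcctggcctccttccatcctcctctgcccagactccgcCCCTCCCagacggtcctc

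The match farthest from the start lay 146 bases before it in CD44, 124 bases in ALDH1A3 and 141 bases in PROCR. The word was not particular to markers that were lower. SOX9, the marker that was higher, could not be searched, because the promoter sequences used held no entry for it. Of the 9 markers searched, 6 held it in at least 1 window, including SOX4, CD24 and BMI1, and ALDH1A1, PROM1 and SOX2 did not. CD24 had 3 windows, PROM1 4 and BMI1 2. This count of genes is therefore not on the scale of the share of all windows, which was also not matched for G and C. The ALDH1A1 window was the poorest in G and C among the markers (38.4%), against a median of 58.0% over all windows. A match of letters is a description of the sequence and not a measured binding site. The hairpin's own target of 21 bases occurred in the canonical ZNF148 transcript (GENCODE release 44) and in 0 of 10 transcripts of the markers:

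hairpin target in ZNF148: CCCTTGGTGAATGTAAATGAT

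ZNF148 itself was 3.72, 4.36 and 4.30 FPKM in shCtr replicates 1, 2 and 3, and 0.914, 0.282 and 0.834 FPKM in shZNF148 replicates 1, 2 and 3. The groups did not overlap, and the log2 fold change, here and below the change of log2(FPKM + 1), was -1.63 (SE 0.18, limma adjusted p = 0.00990). Without shCtr replicate 1 the adjusted p was 0.0603, and without shCtr replicate 3 it was 0.0568. Markers of a mesenchymal-like triple-negative line were mixed. VIM lay between 1507 and 1842 FPKM, ESR1 was listed at 0 in every sample, and PGR and CDH1 reached at most 0.0830 and 0.491 FPKM. The luminal genes KRT8, KRT18 and CLDN4 averaged 158, 162 and 106 FPKM in shCtr, and the mesenchymal gene CDH2 averaged 0.482 FPKM. EPCAM, an epithelial adhesion molecule, averaged 10.6 ± 0.592 FPKM in the shCtr samples and 9.04 ± 1.64 FPKM in the others (SD, n = 3). ERBB2 shares its row with a microRNA gene and was uneven, at 126 FPKM in shCtr replicate 2 and 125 FPKM in shZNF148 replicate 2 against 20.1 to 24.8 FPKM in the other 4 samples. Read numbers are not known from FPKM. The depth relative to shCtr replicate 1, read from the steps between low values, ranged from 0.806 to 1.13. A value of 0 in this table need not mean absence, since RING1 and RXRB, which most cells use, were also listed at 0 and 114 rows were above 20 FPKM in a sample and at 0 in another.

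In shCtr the markers covered a wide range of levels on the FPKM scale. CD44 was far above the rest and ranked 96 of 24108 rows. It was followed by the BMI1 row (rank 1691), PROCR (rank 3113), SOX9 (rank 3493) and ALDH1A3 (rank 7543), and then by CD24 (rank 12859) and SOX4 (rank 13924). Among these 7 markers, no neighbours in the order overlapped between their shCtr samples. In shZNF148 the order changed in 1 place: SOX9 stood above PROCR in all 3 samples, where it had stood below it in all 3 shCtr samples. The values of CD24 and SOX4, at the foot of the order, overlapped in shZNF148.

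**Figure D1:**
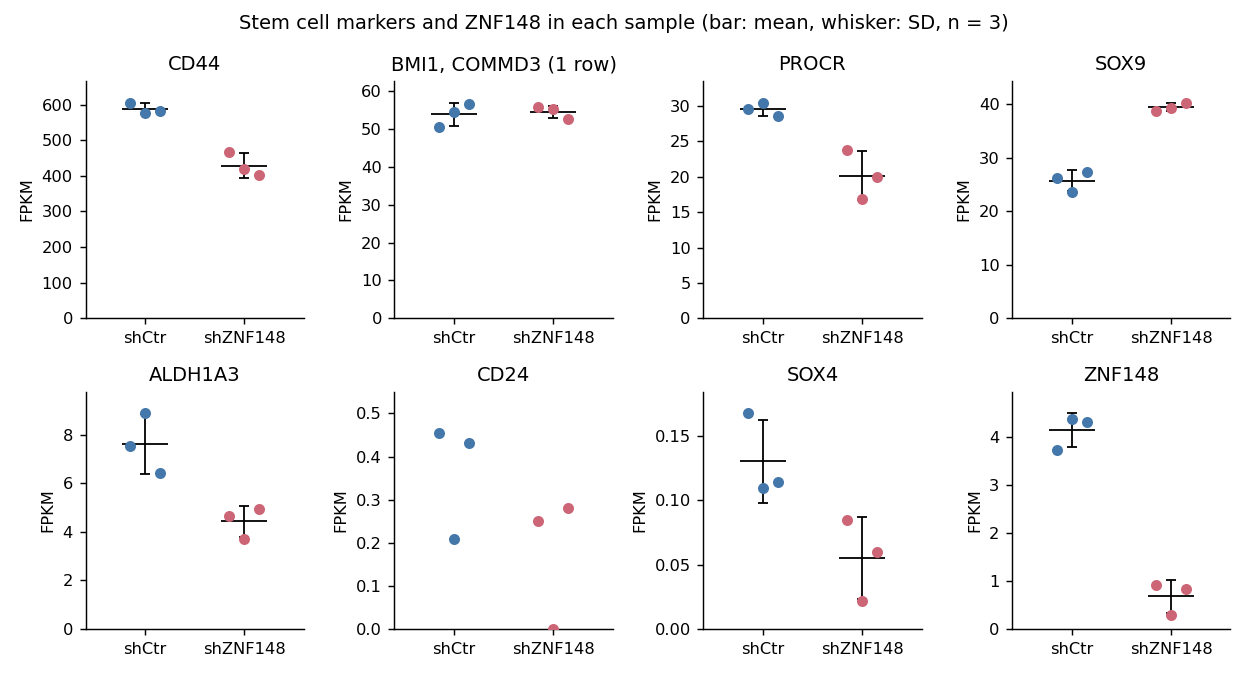
FPKM of 7 stem cell markers and ZNF148 in each sample, with a point for each of 3 shCtr (blue) and 3 shZNF148 (red) samples, the mean as a bar and the SD as a whisker; CD24, listed at 0 in 1 sample, has points only. The groups are apart for CD44, PROCR, SOX9, ALDH1A3, SOX4 and ZNF148, and they overlap for CD24 and for the row that BMI1 shares with COMMD3.

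CD44 is the receptor for hyaluronan, a sugar polymer of the extracellular matrix, and links it to the actin cortex. It was 606, 576 and 583 FPKM in shCtr replicates 1, 2 and 3, and 467, 418 and 402 FPKM in shZNF148 replicates 1, 2 and 3. Every shZNF148 sample was below every shCtr sample. The mean level (± SD, n = 3) went from 588 ± 15.5 to 429 ± 33.9 FPKM, or 72.9% of the control level. The log2 fold change was -0.46 (SE 0.07, 95% interval -0.63 to -0.28, limma adjusted p = 0.0185), a 1.37-fold lower level. That passes the adjusted p and not the 1.5-fold threshold. Without shCtr replicate 1, 2 or 3 the adjusted p was 0.0912, 0.0577 and 0.0827, and under quantile normalization it was 0.0594 with a log2 fold change of -0.33. The gene lies at chr11:35138882-35232402 on the plus strand (GRCh38). A value per gene does not tell the standard CD44 isoform from the variant isoforms.

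CD24 is a small, heavily glycosylated surface protein whose absence is the other side of the CD44-high, CD24-low phenotype. It was 0.454, 0.208 and 0.431 FPKM in shCtr replicates 1, 2 and 3, and 0.251, 0 and 0.282 FPKM in shZNF148 replicates 1, 2 and 3. The groups overlapped, with p = 0.3 by exact two-sided permutation, where 3 samples against 3 allow no p below 0.1. CD24 lay under the filter of a mean of 1 FPKM and was not part of the limma fit. CD24 lies at chr6:106969831-106975627 on the minus strand. Near-identical copies of it exist in the genome, and reads shared with them may be counted elsewhere. The distance between CD44 and CD24, as the difference of their log2(FPKM + 1) values, was 8.71, 8.90 and 8.67 in shCtr and 8.55, 8.71 and 8.30 in shZNF148. CD44 thus stayed far above CD24 in all 6 samples, and the difference between the groups was -0.24 (exact two-sided permutation p = 0.3). With a pseudocount of 0.1 FPKM that difference was 0.46 (exact permutation p = 0.7), so its direction depends on how values near 0 are treated.

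PROM1, a membrane protein of cell protrusions, was listed at 0 in all 6 samples (chr4:15963076-16084378, minus strand). PROCR encodes the endothelial protein C receptor, which presents protein C for activation. It was 29.6, 30.5 and 28.6 FPKM in shCtr replicates 1, 2 and 3, and 23.7, 16.8 and 20.0 FPKM in shZNF148 replicates 1, 2 and 3. The groups were apart, with the lowest value in shZNF148 replicate 2. The mean level (± SD, n = 3) went from 29.5 ± 0.954 to 20.2 ± 3.46 FPKM. This is a log2 fold change of -0.54 (SE 0.12, 95% interval -0.83 to -0.25, limma adjusted p = 0.0358), a 1.45-fold lower level, again past the adjusted p alone. Without shCtr replicate 1, 2 or 3 the adjusted p was 0.121, 0.0959 and 0.104, without shZNF148 replicate 3 it was 0.0700, and with no filter on low values it was 0.0525. PROCR lies at chr20:35172072-35216240 on the plus strand, and 12.8% of its annotated exon bases are shared with a gene on the opposite strand.

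ALDH1A1 and ALDH1A3 oxidise retinaldehyde to retinoic acid. ALDH1A1 was listed at 0 in all 6 samples (chr9:72900671-73080442, minus strand). ALDH1A3 was 7.53, 8.88 and 6.41 FPKM in shCtr replicates 1, 2 and 3, and 4.64, 3.72 and 4.95 FPKM in shZNF148 replicates 1, 2 and 3. All 3 shZNF148 values lay below the lowest shCtr value. The mean fell from 7.61 ± 1.24 to 4.44 ± 0.640 FPKM (SD, n = 3 each), with a log2 fold change of -0.66 (SE 0.14, 95% interval -0.996 to -0.323, limma adjusted p = 0.0325). At 1.58-fold lower, ALDH1A3 was the only one of the 5 tested markers called lower by both thresholds. Without shCtr replicate 1, 2 or 3 the adjusted p was 0.114, 0.0848 and 0.0730, with log2 fold changes of -0.66, -0.56 and -0.76. Without shZNF148 replicate 1 it was 0.0717, with a log2 fold change of -0.69. Without shZNF148 replicate 2 the adjusted p was 0.0475 but the log2 fold change of -0.56 was under 1.5-fold. ALDH1A3 lies at chr15:100877714-100916626 on the plus strand. An antisense gene, ALDH1A3-AS1, covers 32.1% of its annotated exon bases, and whether counting used strand is not given in the sources used here.

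With ALDH1A2 the 3 genes of this enzyme class summed to 7.64, 9.09 and 6.98 FPKM in shCtr and to 4.74, 3.72 and 5.32 FPKM in shZNF148. The groups were apart, at the smallest exact two-sided permutation p that the design allows (p = 0.1). ALDH1A1 was listed at 0 and ALDH1A2 reached at most 0.568 FPKM, so the sum repeats the ALDH1A3 result. The share below varies only with these low ALDH1A2 values beside ALDH1A3. ALDH1A3 made up 98.5%, 97.7% and 91.9% of that sum in shCtr and 97.9%, 100% and 93.0% in shZNF148, so its share overlapped between the groups (exact permutation p = 0.6). Over the 19 ALDH genes, the summed level (± SD, n = 3) was 246 ± 6.6 FPKM in shCtr against 247 ± 13.9 FPKM in shZNF148, and ALDH1A3 gave 3.08% of it in shCtr and 1.81% in shZNF148. The family was led by ALDH18A1, an enzyme of proline synthesis, at 67.0 and 69.2 FPKM, and by ALDH9A1 at 42.7 and 43.3 FPKM. Of the 11 further ALDH genes tested, 1 passed the adjusted p and none passed both thresholds in limma (unadjusted p under 0.05 in 1 higher and 1 lower), and their median log2 fold change was -0.00. The gene that passed was ALDH3A2, which oxidises long-chain fatty aldehydes and was picked out after its values were seen. It rose from 15.5 to 23.1 FPKM (log2 fold change 0.54, SE 0.14, limma adjusted p = 0.0467, at most 0.152 over the alternatives).

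The retinoic acid pathway takes the product of these enzymes. Of 22 listed genes 10 were tested, and DHRS3, which reduces retinaldehyde back to retinol, was the only one past the adjusted p, with a list median of -0.17 on the log2 scale. DHRS3 was 6.93, 6.03 and 5.70 FPKM in shCtr and 2.96, 1.06 and 2.90 FPKM in shZNF148 (log2 fold change -1.18, SE 0.26, limma adjusted p = 0.0342, at most 0.122 over the alternatives). The groups did not overlap. At an unadjusted p under 0.05, 1 gene was higher and 4 were lower. The largest positive value, picked out after it was seen, was that of RARRES3, a gene induced by retinoids, at 23.7 and 54.9 FPKM with groups apart (log2 fold change 1.07, limma adjusted p = 0.0605). It did not pass, nor did the most abundant genes of the list: TGM2, a transglutaminase induced by retinoic acid, was 331 and 394 FPKM (adjusted p = 0.149), and RDH11, a retinal reductase, was 41.6 and 41.3 FPKM (adjusted p = 0.919).

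**Figure D2:**
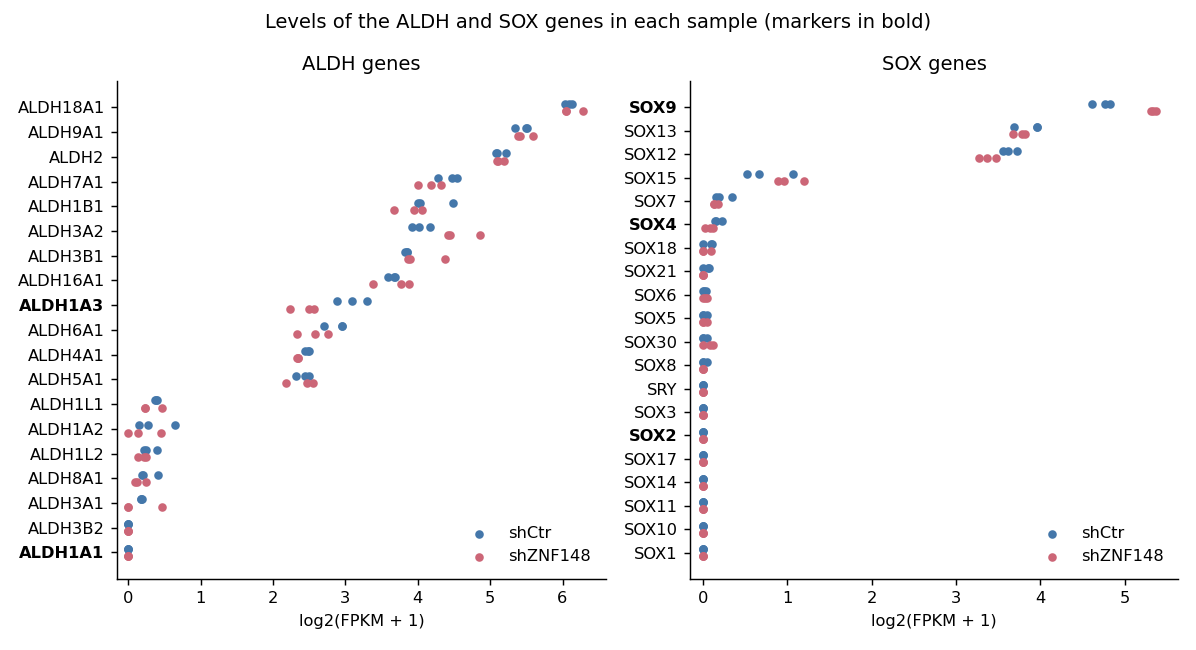
Levels of the ALDH genes (left) and SOX genes (right) as log2(FPKM + 1) in each of 3 shCtr (blue) and 3 shZNF148 (red) samples, ordered by the shCtr mean, with the stem cell markers in bold. ALDH1A3 sits in the middle of its family and is lower in shZNF148, while SOX9 is at the top of its family and is higher in shZNF148; ALDH1A1 and SOX2 lie at 0.

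SOX9 is a transcription factor of mammary progenitors and of cartilage. It was 26.2, 23.5 and 27.3 FPKM in shCtr replicates 1, 2 and 3, and 38.7, 39.3 and 40.3 FPKM in shZNF148 replicates 1, 2 and 3. The shZNF148 samples lay close together and all above the shCtr samples. The mean rose from 25.7 ± 1.94 to 39.4 ± 0.795 FPKM (SD, n = 3 each), with a log2 fold change of 0.60 (SE 0.07, 95% interval 0.43 to 0.78, limma adjusted p = 0.0111). At 1.52-fold higher, SOX9 was the only tested marker called higher by both thresholds, and only just past the fold threshold. Without shCtr replicate 1 the adjusted p was 0.0661 and without shCtr replicate 3 it was 0.0539. Without shCtr replicate 2 it was 0.0374, but the log2 fold change of 0.54 was under 1.5-fold. The gene lies at chr17:72121020-72126416 on the plus strand.

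The other SOX markers were barely detected. SOX2, a pluripotency factor, was listed at 0 in all 6 samples (chr3:181711925-181714436, plus strand). SOX4, a factor of developing and mesenchymal-like cells, was 0.168, 0.110 and 0.114 FPKM in shCtr replicates 1, 2 and 3, and 0.0849, 0.0215 and 0.0595 FPKM in shZNF148 replicates 1, 2 and 3. SOX4 lies at chr6:21593751-21598619 on the plus strand. The groups did not overlap, but at this level the row was under the filter, and p = 0.1 by exact two-sided permutation is the lowest that this design allows. Across the 20 SOX genes the summed level (± SD, n = 3) was 51.9 ± 4.07 FPKM in shCtr against 62.7 ± 0.666 FPKM in shZNF148. SOX9 gave 49.5% of it in shCtr and 62.9% in shZNF148. Only 2 other SOX genes were tested, SOX12 at 11.4 and 9.37 FPKM (limma adjusted p = 0.0928) and SOX13 at 13.7 and 12.6 FPKM (adjusted p = 0.457), with a median log2 fold change of -0.19, and neither passed (unadjusted p under 0.05 in 0 higher and 1 lower). SOX9 and PROCR, neighbours in the order of levels, changed places: the difference of their log2(FPKM + 1) values was -0.17, -0.36 and -0.06 in shCtr and 0.68, 1.18 and 0.98 in shZNF148.

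BMI1, a subunit of Polycomb repressive complex 1, shares its row with COMMD3 and with the read-through gene COMMD3-BMI1. COMMD3 (chr10:22316386-22320306) lies just upstream of BMI1 (chr10:22321099-22331484), both on the plus strand. The joined row was 50.6, 54.7 and 56.7 FPKM in shCtr replicates 1, 2 and 3, and 55.8, 55.3 and 52.8 FPKM in shZNF148 replicates 1, 2 and 3. The groups overlapped. The log2 fold change was 0.02 (SE 0.07, 95% interval -0.14 to 0.17, limma adjusted p = 0.873), and the interval leaves out a change of 1.5-fold in either direction for the joined row. How much of the row comes from BMI1 was not measured. Of 17 listed partners of BMI1 13 were tested, none was called in limma (unadjusted p under 0.05 in 1 higher and 0 lower), and the median log2 fold change was 0.03. PCGF3, which takes the place of BMI1 in other forms of the complex and was picked out after its values were seen, passed the adjusted p alone, at 11.4 and 14.8 FPKM (log2 fold change 0.35, adjusted p = 0.0293, at most 0.108 over the alternatives). The most abundant partners were PHC2, in a row joined with a microRNA gene, at 104 and 119 FPKM (adjusted p = 0.688) and PCGF5 at 35.9 and 36.9 FPKM (adjusted p = 0.832). The PHC2 row was uneven within both groups, at 186, 64.5 and 61.2 FPKM in shCtr and 67.4, 146 and 142 FPKM in shZNF148. CDKN2A and CDKN2B, cell cycle inhibitors that the complex can repress, were listed at 0 in all 6 samples, as was RING1. The reason for these zeros was not tested, and they are not read as repression.

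Counted over all markers, 5 of 10 were tested. Of these, 1 was called higher and 1 lower by both thresholds, where 1.83% of the 11777 tested rows were called higher (216 rows) and 3.66% lower (431 rows). By the adjusted p alone 1 was higher and 3 were lower, where 5.46% of tested rows were higher and 8.13% lower. The groups did not overlap for 3 tested markers with shZNF148 lower and for 1 with shZNF148 higher, where 21.0% and 20.0% of tested rows were so. The median log2 fold change of the 5 was -0.46, against 0.01 over all tested rows. With 5 markers, chosen with earlier results of these data known, these shares are a description. In limma the number of markers past the adjusted p was 0 without shCtr replicate 1, 1 without shCtr replicate 2 and 0 without shCtr replicate 3, while at an unadjusted p under 0.05 it was 1 higher and 3 lower in each of these. The calls over the whole table also dropped, to 3 higher and 26 lower without shCtr replicate 1, to 76 higher and 175 lower without shCtr replicate 2 and to 7 higher and 40 lower without shCtr replicate 3. Without shZNF148 replicate 1 they were 79 higher and 232 lower. An unadjusted p under 0.05 was common in the whole table. With all 6 samples, the limma p of ALDH7A1, 0.0486, ranked 3927 among the 11777 tested rows. The log2 fold changes of CD44, ALDH1A3, PROCR and SOX9 kept their sign in each of 17 alternatives.

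**Figure D3:**
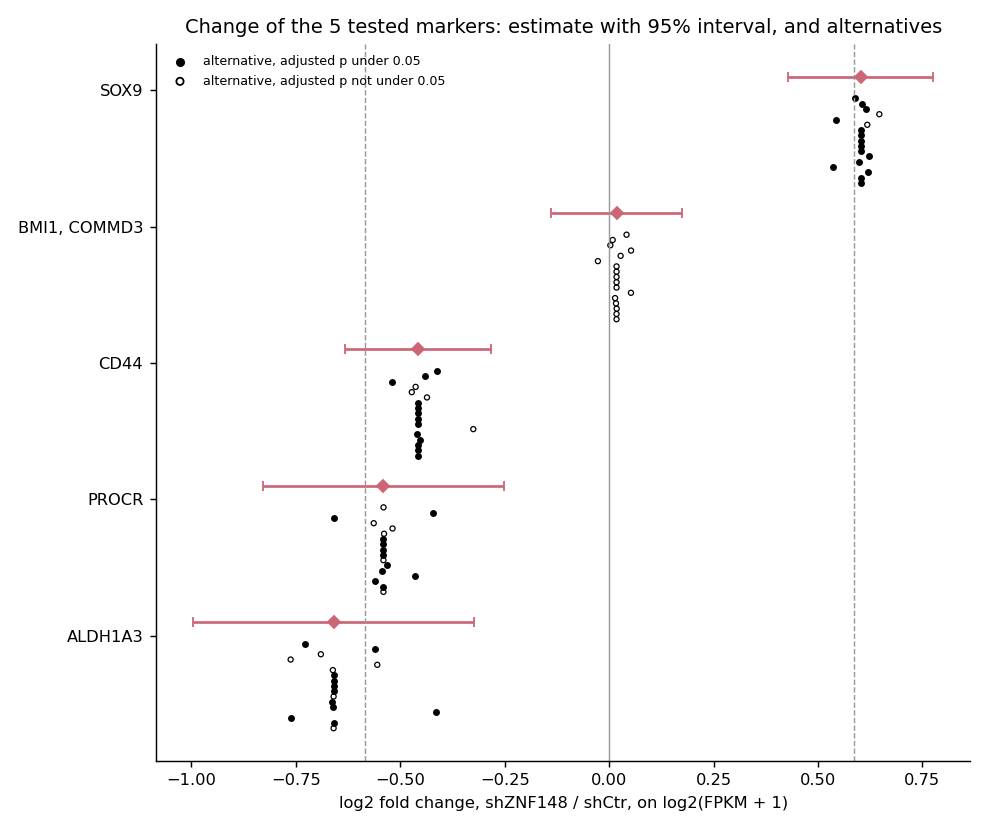
Log2 fold change (shZNF148 over shCtr, on log2(FPKM + 1)) of the 5 tested markers as a diamond with its 95% interval, and below it the value under each of 17 alternatives as a point, filled where the adjusted p was under 0.05; dashed lines mark 1.5-fold. SOX9 lies above 0 and CD44, PROCR and ALDH1A3 lie below 0 in every alternative, with open points among each, and the BMI1 row lies about 0.

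**Figure D4:**
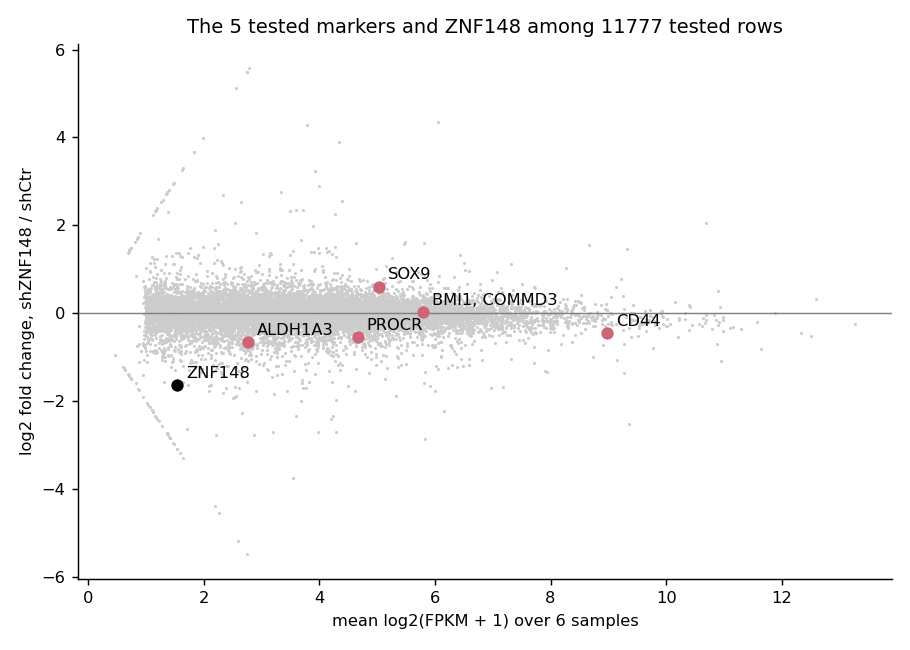
Log2 fold change against the mean level over the 6 samples (log2(FPKM + 1)) for the 11777 tested rows in grey, with the 5 tested markers in red and ZNF148 in black. CD44 lies at the far right, among the most abundant rows, and the slanted lines of grey points at the left are rows listed at 0 in samples of a group.

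Genes that work with the markers, or that mark related cells, were taken from 11 lists with 95 tested rows in all. The lists were chosen with earlier results of these data known, so the counts below are a description and not a test. Of the 95 rows 2 (2.11%) were called higher and 12 (12.6%) lower, against 1.83% and 3.66% of all tested rows. Their median log2 fold change was -0.14. The 2 called higher include LYZ, whose row passed the filter only through the shZNF148 samples. By the adjusted p alone 4 were higher and 20 lower. In limma none was called without shCtr replicate 1 (unadjusted p under 0.05 in 7 higher and 30 lower) or without shCtr replicate 3 (7 higher and 29 lower). Without shCtr replicate 2 none was called higher and 3 were called lower (unadjusted, 9 and 31), and without shZNF148 replicate 1 none was called higher and 5 were called lower (unadjusted, 9 and 35). Without shZNF148 replicate 2 the number called higher was 4. With all 6 samples, 7 rows were higher and 36 lower at an unadjusted p under 0.05. Such p-values were common in the whole table, where a limma p of 0.0486 ranked 3927 of 11777 rows. Each gene named from these lists as past the adjusted p failed it in at least 2 alternatives.

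**Figure D5:**
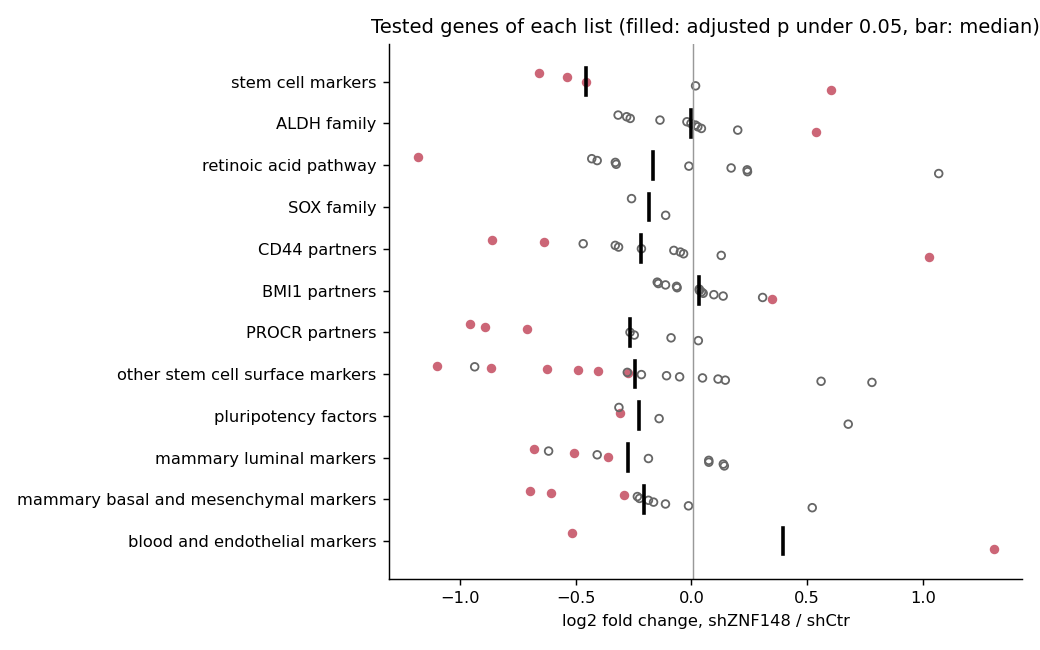
Log2 fold change of each tested gene of the stem cell markers and of 11 lists of related genes, filled where the limma adjusted p was under 0.05, with the list's median as a bar and the median of all tested rows as the vertical line. Filled points to the left outnumber those to the right in most lists, but not among ALDH genes, SOX genes, BMI1 partners and blood and endothelial markers. Over all tested rows, 957 were lower and 643 higher at that adjusted p.

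Partners of CD44 moved both ways. Of 11 tested genes 1 was called higher and 2 lower, with a median log2 fold change of -0.22. HAS2, which makes the CD44 ligand hyaluronan, was 2.40, 3.89 and 3.14 FPKM in shCtr and 1.30, 1.13 and 1.36 FPKM in shZNF148 (log2 fold change -0.86, SE 0.16, limma adjusted p = 0.0233). RDX, encoding radixin, one of the proteins that tie CD44 to actin, fell from 38.5 to 24.8 FPKM (log2 fold change -0.64, SE 0.16, adjusted p = 0.0446). CD74, the invariant chain of MHC class II, which can pair with CD44 at the surface, was 206, 243 and 202 FPKM in shCtr and 413, 601 and 347 FPKM in shZNF148. Its groups were apart and its log2 fold change was 1.03 (SE 0.20, adjusted p = 0.0260), opposite in sign to that of CD44. The most abundant partner, the membrane protease MMP14, was 352 and 283 FPKM and did not pass (adjusted p = 0.123).

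Partners of PROCR in the protein C and tissue factor pathway held 3 called genes of 7 tested, all lower, with a median log2 fold change of -0.27. F3, the tissue factor that starts coagulation, was 386, 379 and 348 FPKM in shCtr and 217, 205 and 260 FPKM in shZNF148 (log2 fold change -0.71, SE 0.10, limma adjusted p = 0.0146). TFPI, its inhibitor, fell from 68.0 to 34.8 FPKM (log2 fold change -0.96, SE 0.12, adjusted p = 0.0118). PROS1, the protein S cofactor of activated protein C, fell from 3.08 to 1.18 FPKM (log2 fold change -0.89, SE 0.17, adjusted p = 0.0245). Starter and inhibitor of coagulation were thus both lower. THBD, the thrombomodulin that works beside PROCR and was picked out after its values were seen, was 9.95 and 10.2 FPKM and did not pass (adjusted p = 0.903), nor did the protease-activated receptor F2RL1, at 82.3 and 68.7 FPKM (adjusted p = 0.123).

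Among 23 other surface markers used for breast or mammary stem and progenitor cells, 16 were tested, 3 were called lower and none higher in limma (unadjusted p under 0.05 in 8 lower and 1 higher), and 6 were lower by the adjusted p alone. CD55, a complement inhibitor, was 47.8, 49.7 and 46.5 FPKM in shCtr and 24.8, 17.3 and 24.3 FPKM in shZNF148 (log2 fold change -1.10, SE 0.14, limma adjusted p = 0.0111). MCAM, an adhesion molecule, fell from 23.7 to 12.7 FPKM (log2 fold change -0.87, SE 0.19, adjusted p = 0.0324), and the tetraspanin CD9 fell from 127 to 81.9 FPKM (log2 fold change -0.62, SE 0.07, adjusted p = 0.0108). The integrin ITGA6, or CD49f, by which mammary stem cells are sorted, was picked out after its values were seen and was 166 and 125 FPKM (log2 fold change -0.41, adjusted p = 0.0252). Its partner ITGB1, the most abundant of the list, was 386 and 320 FPKM and did not pass (adjusted p = 0.0971), and CD151 was 180 and 129 FPKM (log2 fold change -0.49, adjusted p = 0.0409). ABCG2, a transporter, was the 1 marker higher at an unadjusted p under 0.05 and was picked out after its values were seen. It was 1.44 and 2.59 FPKM with groups apart and did not pass (log2 fold change 0.56, limma adjusted p = 0.064). The list's median was -0.25, so CD44 and PROCR were not the only surface markers with a lower level, though the list did not move as 1. CXCR1, TSPAN8 and KIT were listed at 0 in all 6 samples.

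Of 15 pluripotency factors 4 were tested, with a median log2 fold change of -0.23, and none was called in limma (unadjusted p under 0.05 in 0 higher and 2 lower). MYC was 85.8 and 68.9 FPKM (log2 fold change -0.31, SE 0.08, limma adjusted p = 0.0431, at most 0.143 over the alternatives), and ZNF281, a close relative of ZNF148, was 8.94 and 8.05 FPKM (adjusted p = 0.376). KLF4, picked out after its values were seen, went the other way without passing, at 8.76 and 15.9 FPKM (log2 fold change 0.68, limma adjusted p = 0.179). Its groups were apart, with the highest value, 25.9 FPKM, in shZNF148 replicate 2. NANOG was listed at 0 in all 6 samples, like SOX2.

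Lineage markers moved in the same samples. The summed level of 16 luminal markers ran from 1155 to 1269 FPKM in shCtr and from 1019 to 1088 FPKM in shZNF148, with a median log2 fold change of -0.27 and 1 of 10 tested genes called lower (MUC1, a mucin, from 11.0 to 6.53 FPKM, log2 fold change -0.68, limma adjusted p = 0.0223) and ESR1 and ELF5 listed at 0. The most abundant luminal genes were KRT7, at 409 and 288 FPKM (adjusted p = 0.0272, under the fold threshold), and the row that KRT17 and KRT19 share, at 265 and 232 FPKM (adjusted p = 0.239). The summed level of 16 basal and mesenchymal markers ran from 2635 to 2748 FPKM in shCtr and from 2259 to 2320 FPKM in shZNF148. Their median log2 fold change was -0.21, and 1 of the 10 tested was higher and 5 were lower at an unadjusted p under 0.05. Of these 10, EGFR fell from 66.6 to 43.5 FPKM (log2 fold change -0.61, adjusted p = 0.0200) and OXTR from 4.80 to 2.57 FPKM (log2 fold change -0.70, adjusted p = 0.0293), while AXL was 345 and 281 FPKM (adjusted p = 0.0364, under the fold threshold) and VIM 1772 and 1516 FPKM (adjusted p = 0.0563). SNAI2, a transcription factor of mesenchymal cells that was picked out after its values were seen, went the other way without passing, at 13.9 and 20.4 FPKM (log2 fold change 0.52, adjusted p = 0.0656). KRT5 and KRT6B were listed at 0. Both sums were thus lower in shZNF148, with no overlap. They are not separate, since the row that KRT17 and KRT19 share counts in both. VIM, which did not pass, was the largest part of the basal and mesenchymal sum, and KRT7 was the largest part of the luminal sum. KRT18 was also lower, at 162 and 125 FPKM (limma adjusted p = 0.0285, under the fold threshold). KRT8 (158 and 174 FPKM), CLDN4, XBP1 and GATA3 had higher means in shZNF148 and did not pass. Among all tested rows, 21.0% were lower with no overlap. Blood and endothelial markers summed to 111 to 129 FPKM in shCtr and 75.2 to 91.2 FPKM in shZNF148, nearly all of it CD68, a lysosomal protein also made outside the blood lineage (117 and 81.7 FPKM, adjusted p = 0.0233). Only 2 of these markers were tested. LYZ, the lysozyme of white blood cells and some epithelia, rose from 0.627 to 3.18 FPKM (log2 fold change 1.31, adjusted p = 0.0267), and HBB and ERG were listed at 0. The part of these lineage markers in the changes of the stem cell markers was not tested.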

How the data were processed

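RNA-seq of MDA-MB-231 gave 6 samples, 3 shCtr and 3 shZNF148, grouped by the labels. A single table of FPKM values was deposited by the authors, 1 column per sample, and 0 columns were left unmapped. Per the labels' processing notes, bcl2fastq 2.17.1.14, TopHat2 2.0.14, Cufflinks 2.2.1 and Cuffnorm 2.2.1 were used, with the builds hg18 and hg19. The paper's methods name Salmon, GRCh38 and DESeq2 instead, and which of these made the deposited values is not known. The annotation and the strand setting are not given in the sources used here. Counts were not recoverable from FPKM, so the read number is unknown and a count test was not run.

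Of 24108 rows, the 11777 whose mean reached 1 FPKM were analysed by limma 3.58.1 (R 4.3.3) on log2(FPKM + 1), a scale that understates changes of low genes, with group as the only term, eBayes with a trend, and Benjamini-Hochberg adjustment over all of them. A call needed an adjusted p under 0.05 and more than 1.5-fold. Exact permutation tests were two-sided. The steps were tested on simulated data. Python 3.11.15 was used for the rest. A symbol was matched to a row by its name, 733 rows join several symbols, and a symbol with several rows would be represented by that with the highest mean.

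The markers and the lists of related genes were chosen with earlier results of these data known. From each list, the called genes and the 2 with the highest shCtr mean were named, beside ZNF148, all markers, the ALDH1A genes and the markers of the cell line. The lists held other ALDH genes, the retinoic acid pathway, other SOX genes, partners of CD44, BMI1 and PROCR, other surface markers of stem cells, pluripotency factors, and luminal, basal and mesenchymal, and blood and endothelial markers. Some genes of these lists are not reported here, and most others are given only in the counts. Gene coordinates and exon overlaps came from GENCODE release 44 (GRCh38), promoters from RefSeq and the hairpin target from the study's supplement. As alternatives, each sample was left out in turn, and the filter, pseudocount, scaling and variance model were varied. In others, rows with the same name were summed, or the replicate number was added as a block. Rows that join several symbols stayed joined in every alternative.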

Additional observations from a re-analysis of the deposited data

How the results depend on the processing

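No marker that passed changed sign under any of the 17 alternatives. The log2 fold change ranged from -0.52 to -0.33 for CD44 (4 alternatives with an adjusted p not under 0.05), from -0.76 to -0.42 for ALDH1A3 (6), from -0.66 to -0.42 for PROCR (6) and from 0.54 to 0.65 for SOX9 (2), and the BMI1 row stayed at an adjusted p of 0.609 to 0.985. Over all rows the calls of 216 higher and 431 lower became 76 and 204 with a pseudocount of 5 FPKM, and 3 to 222 and 26 to 397 with 1 sample left out. Among markers, 1 called higher became 0 with that pseudocount and 0 to 1 with 1 sample left out. The 1 called lower became 0 with that pseudocount and 0 with no filter, and 0 to 1 with 1 sample left out. The 4 past the adjusted p alone became 2 with no filter and 0 to 4 with 1 sample left out. Related genes called higher went from 2 to 1 with a filter of 5 FPKM or a pseudocount of 5 FPKM and to 0 to 4 with 1 sample left out. Those called lower went from 12 to 7 with a pseudocount of 5 FPKM and to 0 to 11 with 1 sample left out. The log2 fold change of ZNF148 was -1.74 to -1.45 with 1 sample left out, -2.57 with a pseudocount of 0.1 FPKM and -0.69 with one of 5 FPKM, and a filter of 5 FPKM removes its row. The difference between CD44 and CD24 became 0.46 with a pseudocount of 0.1 FPKM. Where 1 sample is left out, the spread of the pair that is left is pooled with the other group. The cause of the lost calls was not tested. The share of calls that were higher, 33.4%, was 10.3% without shCtr replicate 1 and 14.9% without shCtr replicate 3.

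The replicate numbers are shared by both groups, but samples with the same number, after subtracting each group's mean, correlated at 0.001, -0.088 and 0.030, so the numbers were not taken to pair the samples. With the number as a block, the calls over all rows were 99 higher and 216 lower, markers called lower 0 and higher 1, markers past the adjusted p 2, and related genes called 1 higher and 5 lower. The adjusted p in that block fit was 0.0498 for CD44, 0.0432 for SOX9, 0.0822 for ALDH1A3 and 0.0671 for PROCR. Low values such as those of CD24 and SOX4 are limited by an unknown read number.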
